A study of Mus musculus with 12 samples.

Results

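A set of 9 genes that mark monocytes newly drawn into tissue was followed in RNA sequencing of mouse liver macrophages: Ly6c2, Ccr2, Clec4e, S100a8, S100a9, Ms4a4c, Chil3, Plac8 and Fn1. They were taken as a named list, chosen with earlier results of these data known, and all 9 were found among the 25700 genes listed in the count table. The cells were non-parenchymal liver cells enriched with beads for F4/80, a surface protein of mouse macrophages, after collagenase perfusion, which enriches macrophages without a sort. There were 12 libraries in 4 groups of 3. Sph/sph mice carry on both alleles a mutation that gives fragile, spherical red cells in the whole animal. Their controls are wt/wt in the labels and littermates in the design text, although the table's column names call them heterozygous; they are called WT here after the labels. The groups were sph/sph mice given an agonistic antibody to CD40 (20 mg/kg into the peritoneum, cells taken at 30 h), WT mice given the same, sph/sph mice given saline and WT mice given saline. All were 8 to 10 weeks old and all are labelled male. The design text counts 3 mice per group, so replicates are taken as separate animals. The letters A to C name the libraries of a group by column order. Within each treatment, library A of sph/sph and library A of WT share an identifier in their column names, whose meaning is not given in the sources used here; no other libraries of the genotypes compared share one. The series' title asks whether the uptake of red cells drives an anti-inflammatory program in liver macrophages.

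In mice, classical monocytes are recognised by a high level of the surface protein Ly6C and by the chemokine receptor CCR2, which responds to the ligands CCL2 and CCL7 and lets these cells leave the bone marrow and enter inflamed tissue. Kupffer cells, which are the liver's own macrophages, carry little of either. When Kupffer cells are lost, monocytes entering the liver can take their place and lose the monocyte genes as they mature. S100a8, S100a9 and Chil3 are also high in neutrophils, and Fn1 is made by hepatocytes and several other liver cells, so the 9 genes are not specific to one cell.

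Total counts per library were between 14991250 and 18984067, and libraries of 1 group differed from one another by far more than sampling noise. Although all mice are labelled male, 4 of the 12 libraries, library A of each group, held 0 counts of 4 Y-linked genes, whereas the other 8 held at least 2436. One such library per group means that the groups are balanced for it. These are also the libraries that share an identifier within a treatment, so sex and whatever the identifier stands for cannot be told apart. The library sph/sph anti-CD40 C stood apart from A and B of its group: its 9 B cell marker genes summed to 3395 CPM (counts relative to the library's total, on the usual scale), against 322 and 122 CPM in A and B, and its level of Ccl2 was 1.29 CPM, against 86.4 and 58.4 CPM. Results of the 9 genes that rest on this library are given with and without it, and so are counts of the related gene lists that it changes. The 16 Kupffer cell markers, which check the labelled macrophages, summed to 25880 to 43997 CPM in sph/sph anti-CD40, to 732 to 1561 CPM in WT anti-CD40, to 40000 to 57075 CPM in sph/sph saline and to 36758 to 44681 CPM in WT saline. Adgre1, which encodes the F4/80 protein that the beads bind, stood at 1101 to 2237 CPM in sph/sph anti-CD40, at 39.8 to 173 CPM in WT anti-CD40, at 1429.9 to 1907 CPM in sph/sph saline and at 1579 to 1942 CPM in WT saline. In these bulk samples fewer cells of a type and less RNA per cell cannot be told apart.

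After anti-CD40 the monocyte genes were high in WT preparations and for most of the 9 genes high in 2 of the 3 sph/sph preparations. Of the 9 genes, 6 rose in WT, led by Clec4e and Ly6c2, where 19.4% of all tested genes rose. In sph/sph mice 1 rose with all libraries in the fit and 6 rose without library C. The shares of all tested genes that rose there were 0.578% with library C and 9.83% without it. Library C was the lowest of its group for 8 of the 9 genes, so leaving it out raises their sph/sph responses. Calls of the members made without it are therefore no independent result. No member differed between the genotypes past the threshold under anti-CD40 or under saline. S100a9 was the 1 member called for a response that differed between genotypes, and this call held in 9 of 21 alternative settings. Of all tested genes 3.18% were called higher and 1.12% lower for that difference. Levels below are CPM on library sizes scaled by edgeR's TMM factors; log2 folds, with approximate standard errors (SE), and adjusted p-values are from edgeR's quasi-likelihood test with Benjamini-Hochberg adjustment over 13844 tested genes, and a gene was called at an adjusted p under 0.05.

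**Figure D1:**
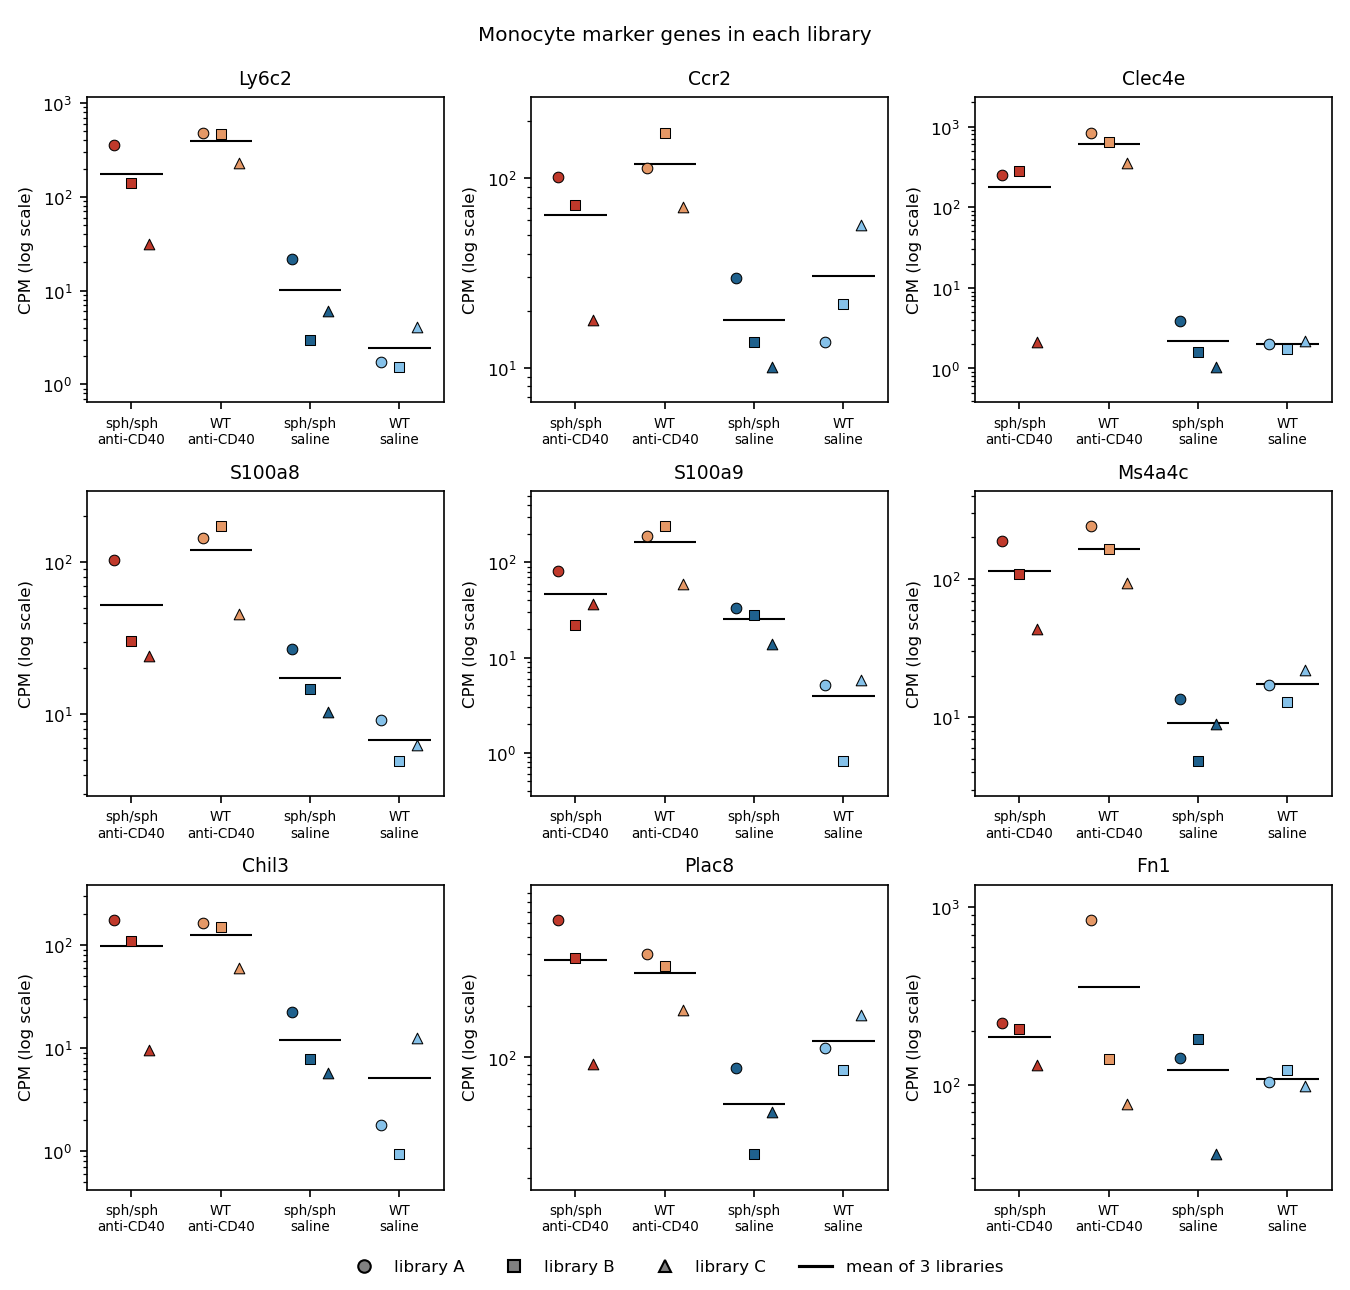
Level of each of the 9 genes in each of the 12 libraries, in CPM on a log axis that differs between panels; symbols mark libraries A to C and the black line is the mean of 3 libraries. In WT anti-CD40, 8 of the 9 genes lie above all WT saline libraries, the exception being Fn1, and sph/sph anti-CD40 C is the lowest library of its group for 8 of the 9 genes.

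Since several members were high in the same libraries, the 250 bases before their RefSeq starts (GRCm38.p6) were searched for letters typical of myeloid and inflammatory factors: TTNCNNAA for C/EBP, AGGAAGT for PU.1, GGANTTTCC for NF-kB, GAAANNGAA for IRF factors and TTCNNNGAA for the GAS element of STAT factors, each on both strands. Entries were matched for 8 of the 9 genes; Fn1 had none. The sequences of the pair with the largest responses, Clec4e and Ly6c2, and of the calprotectin pair are shown 5′ to 3′ (for Ly6c2, the first of its 2 entries) along the gene's own strand, in lower case with matched letters in capitals. They cover chr6:123289872-123290121 (minus strand) for Clec4e, chr15:75111972-75112221 (minus strand) for Ly6c2, chr3:90668821-90669070 (plus strand) for S100a8 and chr3:90695722-90695971 (minus strand) for S100a9.
Clec4e: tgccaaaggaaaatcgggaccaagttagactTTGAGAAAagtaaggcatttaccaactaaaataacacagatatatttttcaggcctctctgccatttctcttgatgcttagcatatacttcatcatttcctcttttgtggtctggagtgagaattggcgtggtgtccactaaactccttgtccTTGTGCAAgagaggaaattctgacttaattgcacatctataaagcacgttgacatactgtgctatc
Ly6c2: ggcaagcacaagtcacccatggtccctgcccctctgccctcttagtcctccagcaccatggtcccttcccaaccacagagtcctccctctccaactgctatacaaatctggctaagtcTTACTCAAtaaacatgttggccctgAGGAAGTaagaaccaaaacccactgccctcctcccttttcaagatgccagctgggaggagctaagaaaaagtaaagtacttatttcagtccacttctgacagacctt
S100a8: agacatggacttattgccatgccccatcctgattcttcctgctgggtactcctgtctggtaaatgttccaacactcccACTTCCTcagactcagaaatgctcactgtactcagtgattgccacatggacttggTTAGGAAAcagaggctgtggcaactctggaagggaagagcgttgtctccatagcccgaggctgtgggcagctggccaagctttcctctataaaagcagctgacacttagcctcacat
S100a9: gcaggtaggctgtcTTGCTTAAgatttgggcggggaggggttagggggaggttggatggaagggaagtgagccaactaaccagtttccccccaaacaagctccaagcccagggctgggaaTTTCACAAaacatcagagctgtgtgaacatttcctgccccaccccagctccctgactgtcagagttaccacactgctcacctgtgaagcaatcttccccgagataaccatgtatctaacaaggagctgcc
In these windows Clec4e holds 2 C/EBP matches, from -219 to -212 and from -66 to -59 relative to the start. Ly6c2 holds a C/EBP match from -132 to -125 and a PU.1 match from -107 to -101, S100a8 a C/EBP match from -117 to -110 and a PU.1 match from -172 to -166, and S100a9 2 C/EBP matches, from -236 to -229 and from -130 to -123.

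All 8 genes with an entry hold at least 1 C/EBP match, as do 36.8% of the 32851 promoters in the table. Chil3 holds 3 C/EBP, 1 PU.1, 1 IRF and 1 GAS match, of which the PU.1 and IRF matches overlap each other and the IRF match overlaps a C/EBP match, and Ccr2 holds an IRF match beside its C/EBP match. PU.1 matches occur in 7.69% of all promoters, IRF matches in 7.13%, GAS matches in 7.02% and NF-kB matches in 1.07%. No member's window holds the NF-kB letters searched for, including Clec4e. A match of letters is a description of the window and no measure of binding.

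The comparison of anti-CD40 with saline in WT mice asks how the monocyte genes respond to CD40 engagement when red cells are normal. Here 19.4% of tested genes were called higher and 19.7% lower. With all libraries, 6 of the 9 members rose and none fell, and for 8 of 9 every anti-CD40 library lay above every saline library. The share of all tested genes whose groups do not overlap was not computed for any comparison. Counts of genes without overlap, here and below, therefore have no such share to be read against. The median log2 fold of the 9 was 4.16, against 0.05 over all tested genes. In the same libraries 15 of 16 Kupffer cell genes fell, led by Cd207, Cd163 and Clec4f at log2 folds of -13.07, -12.22 and -11.18, and 14 of 15 T and NK cell genes rose. Of the other marker lists, 7 of 13 dendritic cell genes rose and 1 fell, 2 of 9 B cell genes rose (7 rose and 1 fell without sph/sph anti-CD40 C), 2 of 12 hepatocyte (4 without that library) and 4 of 11 stellate cell genes fell, 1 of 10 endothelial genes rose, and 1 of 13 erythroid genes rose and 2 fell. The part of these cells in the members' rise was not tested.

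Ccr2 is the receptor that draws classical monocytes into tissue (ENSMUSG00000049103, chromosome 9, 124101950 to 124113557 in GRCm38). It stood at 113, 174 and 70.7 CPM in WT anti-CD40, libraries A to C, against 13.7, 21.7 and 56.5 CPM in the WT saline libraries. The groups did not overlap, but WT saline C came close to the lowest anti-CD40 library. The log2 fold of Ccr2 was 1.96 ± 0.71 (SE) and missed the threshold (edgeR adjusted p = 0.0506). The call was made in 9 of 22 alternatives, DESeq2 and limma-voom among them, with adjusted p-values from 0.0118 to 0.181. It passed when WT saline C was left out (log2 fold 2.75, adjusted p = 0.0286), when sph/sph anti-CD40 A was (adjusted p = 0.0499) and when sph/sph anti-CD40 C was (adjusted p = 0.0203).

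The ligands of Ccr2 were measured with it, on a list of 14 genes of the CCR2 and monocyte growth factor axis of which 12 could be tested. In WT 6 of them rose and 2 fell, with Ccl2 at a log2 fold of 5.81 ± 1.10, Ccl12 at 4.78 ± 1.51 and Ccl7 at 4.15 ± 1.14. The size of the Ccl12 fold came mainly from 1 library. Ccl12 ran from 2.07 to 53.4 CPM in WT anti-CD40, with a median of 2.89 CPM, against 0.549 to 0.835 CPM in WT saline. Ccl2, a ligand of Ccr2, stood at 354, 223 and 325 CPM in WT anti-CD40 libraries and at 6.23, 6.48 and 3.38 CPM in WT saline libraries.

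Ly6c2 encodes the Ly6C surface protein by which mouse classical monocytes are sorted (ENSMUSG00000022584, chromosome 15, 75108158 to 75111970, minus strand). It stood at 485, 468 and 230.1 CPM in WT anti-CD40, against 1.74, 1.54 and 4.10 CPM in WT saline. Every anti-CD40 library was thus far above every saline library. The log2 fold was 7.32 ± 1.12, a 159.6-fold rise (edgeR adjusted p = 0.000868), and the call held in all 22 alternative settings.

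Ms4a4c, a membrane protein of the MS4A family expressed in mouse monocytes (ENSMUSG00000024675, chromosome 19, 11404770 to 11427246), stood at 241, 164 and 93.3 CPM in WT anti-CD40 and at 17.2, 12.9 and 22.1 CPM in WT saline. It rose 9.54-fold (log2 fold 3.25 ± 0.58, edgeR adjusted p = 0.00197). No library of one group came near the other.

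Clec4e encodes MINCLE, a receptor for mycobacterial glycolipids and for products of dying cells (ENSMUSG00000030142, chromosome 6, 123281789 to 123289870, minus strand). It had the largest fold of the 9 genes. Clec4e stood at 842, 647 and 349 CPM in WT anti-CD40, against 1.99, 1.76 and 2.22 CPM in WT saline. The saline libraries lay close together and no library bridged the groups. Its log2 fold was 8.26 ± 1.46, a 307-fold rise (edgeR adjusted p = 0.00190), and limma-voom was the 1 of 22 alternatives that did not call it (adjusted p = 0.0679).

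Of the 7 partners and signalling genes of MINCLE, Clec4d (log2 fold 4.78 ± 0.85) and Malt1 (3.38 ± 0.42) rose in WT and none fell. Clec4d encodes a C-type lectin that pairs with MINCLE, and Malt1 a protease of the signalling complex downstream. In sph/sph mice 1 of the 7 rose, and 2 without library C; between genotypes under anti-CD40 1 was higher in sph/sph, and 2 without C. Clec4d stood at 121, 80.4 and 32.9 CPM in WT anti-CD40 libraries and at 2.76, 2.80 and 2.94 CPM in WT saline libraries.

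S100a8 and S100a9 encode the subunits of calprotectin, a calcium- and zinc-binding protein that neutrophils and classical monocytes hold in large amounts. They lie near each other on chromosome 3, S100a8 (ENSMUSG00000056054) at 90668978 to 90670035 on the plus strand and S100a9 (ENSMUSG00000056071) at 90692632 to 90695721 on the minus strand. S100a8 stood at 145, 172 and 45.6 CPM in WT anti-CD40, against 9.13, 4.94 and 6.26 CPM in WT saline. S100a9 stood at 188, 239 and 59.6 CPM in WT anti-CD40, against 5.21, 0.824 and 5.76 CPM in WT saline. For both genes the groups were clearly apart, with library C the lowest of the WT anti-CD40 libraries. S100a8 rose 17.8-fold (log2 fold 4.15 ± 0.71, edgeR adjusted p = 0.00160) and S100a9 rose 41.3-fold (5.37 ± 0.85, edgeR adjusted p = 0.00105). Both calls held in all 22 alternatives.

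Neutrophil markers moved with these genes: 9 of 19 tested neutrophil genes rose in WT and none fell, among them Lcn2 (log2 fold 5.43 ± 1.45), Cxcr2 (4.80 ± 0.95) and Stfa2l1, for which no fold is given since it had 98 counts over the WT anti-CD40 libraries and 2 over the WT saline libraries. The 20 listed neutrophil genes summed to 532 to 786 CPM in WT anti-CD40 and to 182 to 204 CPM in WT saline, and no listed neutrophil gene was at 0 in any WT anti-CD40 library. Their part in the rise of S100a8, S100a9 and Chil3 was not tested.

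Chil3, a secreted chitinase-like protein known as Ym1 (ENSMUSG00000040809, chromosome 3, 106147554 to 106167564, minus strand), stood at 164, 149 and 60.1 CPM in WT anti-CD40 and at 1.80, 0.934 and 12.6 CPM in WT saline. All anti-CD40 libraries were higher, though WT saline C stood well above the other saline libraries. Chil3 had a log2 fold of 4.59 ± 1.21 (edgeR adjusted p = 0.0138); without WT saline A it was 4.19 and missed the threshold (adjusted p = 0.0523). Its near neighbour Chil4 had at most 3 counts in any library.

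Plac8, a small cysteine-rich protein of myeloid cells (ENSMUSG00000029322, chromosome 5, 100553725 to 100572245, minus strand), was already present without anti-CD40. It stood at 399, 337 and 188 CPM in WT anti-CD40, against 113, 84.8 and 176 CPM in WT saline. The groups did not overlap, but only narrowly so. The log2 fold was 1.30 ± 0.63 (edgeR adjusted p = 0.126), and 1.27 (adjusted p = 0.0424) without sph/sph anti-CD40 C.

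Fn1 encodes fibronectin, a matrix protein that monocytes and newly formed macrophages secrete (ENSMUSG00000026193, chromosome 1, 71585520 to 71653200, minus strand). It stood at 845, 139 and 78.0 CPM in WT anti-CD40, against 104, 121 and 98.7 CPM in WT saline. The groups overlapped, and the higher mean came from WT anti-CD40 A. With all libraries the log2 fold was 1.71 ± 0.80 (edgeR adjusted p = 0.112); without WT anti-CD40 A it was 0.01 (adjusted p = 0.994), and without WT anti-CD40 C it was 2.15 (adjusted p = 0.0463). In sph/sph mice 1 of 6 genes of fibronectin receptors rose, and without library C 2 rose and 1 fell. Of the same 6 genes 3 rose and 2 fell in WT, including the integrin subunits Itga5 (log2 fold 2.11 ± 0.44) and Itga8 (-5.45 ± 1.49), which pair with other integrin chains to bind fibronectin.

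The same treatment in sph/sph mice asks whether these genes respond when red cells are fragile. With all 12 libraries, 0.578% of tested genes were called higher and 0.202% lower. Of the members 1 of 9 rose, Ms4a4c, and none fell; for 3 of 9, Ly6c2, Ms4a4c and Plac8, every anti-CD40 library lay above every saline library. Without sph/sph anti-CD40 C 6 of 9 rose, while the shares over all tested genes were 9.83% higher and 7.04% lower. The median log2 fold of the members was 2.75 with this library and 3.20 without it, against 0.04 over all tested genes in the fit with it.

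Ms4a4c stood at 189, 109 and 43.7 CPM in sph/sph anti-CD40, libraries A to C, against 13.6, 4.87 and 8.90 CPM in the sph/sph saline libraries. Even C, the lowest anti-CD40 library, lay above every saline library. It rose 12.5-fold (log2 fold 3.64 ± 0.59, edgeR adjusted p = 0.0294). This call was close to the threshold: the adjusted p lay above 0.05 when any 1 of 8 libraries was left out, WT saline A or C, WT anti-CD40 B, sph/sph anti-CD40 A or B, or any sph/sph saline library, with the highest value at 0.183. The log2 fold stayed between 3.06 and 4.04 in all 22 alternatives.

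Clec4e showed the widest gap between libraries of this group. It stood at 254, 282 and 2.16 CPM in sph/sph anti-CD40, against 3.86, 1.60 and 1.05 CPM in sph/sph saline. Libraries A and B were far above saline, and C, with 40 counts, lay within the saline range. The log2 fold was 6.38 ± 1.35 (edgeR adjusted p = 0.0583) with C and 6.95 ± 0.54 (adjusted p = 0.000429) without it.

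Ly6c2 stood at 359, 141 and 31.1 CPM in sph/sph anti-CD40, against 21.5, 2.97 and 6.11 CPM in sph/sph saline. The groups did not overlap, but C was close to sph/sph saline A. Its log2 fold was 4.12 ± 0.96 (edgeR adjusted p = 0.0737), and 4.60 ± 0.80 (adjusted p = 0.00652) without C.

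Plac8 stood at 625, 379 and 92.2 CPM in sph/sph anti-CD40, against 86.8, 27.4 and 48.1 CPM in sph/sph saline. Library C was only just above sph/sph saline A. The log2 fold was 2.75 ± 0.67 (edgeR adjusted p = 0.0775), and 3.20 ± 0.51 (adjusted p = 0.00451) without C.

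Chil3 stood at 174, 110.3 and 9.55 CPM in sph/sph anti-CD40, against 22.5, 7.90 and 5.76 CPM in sph/sph saline. Ccr2 stood at 101, 72.1 and 17.8 CPM in sph/sph anti-CD40, against 29.9, 13.7 and 10.1 CPM in sph/sph saline. For both genes C fell within the saline range and A and B were above it. Chil3 had a log2 fold of 3.02 ± 1.12 (edgeR adjusted p = 0.170) with C and 3.55 ± 0.94 (adjusted p = 0.0317) without it. Ccr2 had 1.83 ± 0.71 (edgeR adjusted p = 0.184) and 2.27 ± 0.62 (adjusted p = 0.0354).

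The calprotectin genes and Fn1 did not pass in sph/sph mice with or without C. S100a8 stood at 103, 30.2 and 24.0 CPM in sph/sph anti-CD40, against 26.9, 14.7 and 10.3 CPM in sph/sph saline. S100a9 stood at 80.7, 21.9 and 36.6 CPM in sph/sph anti-CD40, against 33.2, 28.3 and 13.8 CPM in sph/sph saline. For both genes the groups overlapped and library A was the highest in each. Log2 folds were 1.60 ± 0.64 for S100a8 (edgeR adjusted p = 0.194) and 0.89 ± 0.71 for S100a9 (edgeR adjusted p = 0.494). Fn1 stood at 222, 205 and 129 CPM in sph/sph anti-CD40, against 141, 181 and 40.5 CPM in sph/sph saline, also overlapping (log2 fold 0.62 ± 0.78, edgeR adjusted p = 0.684).

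**Figure D2:**
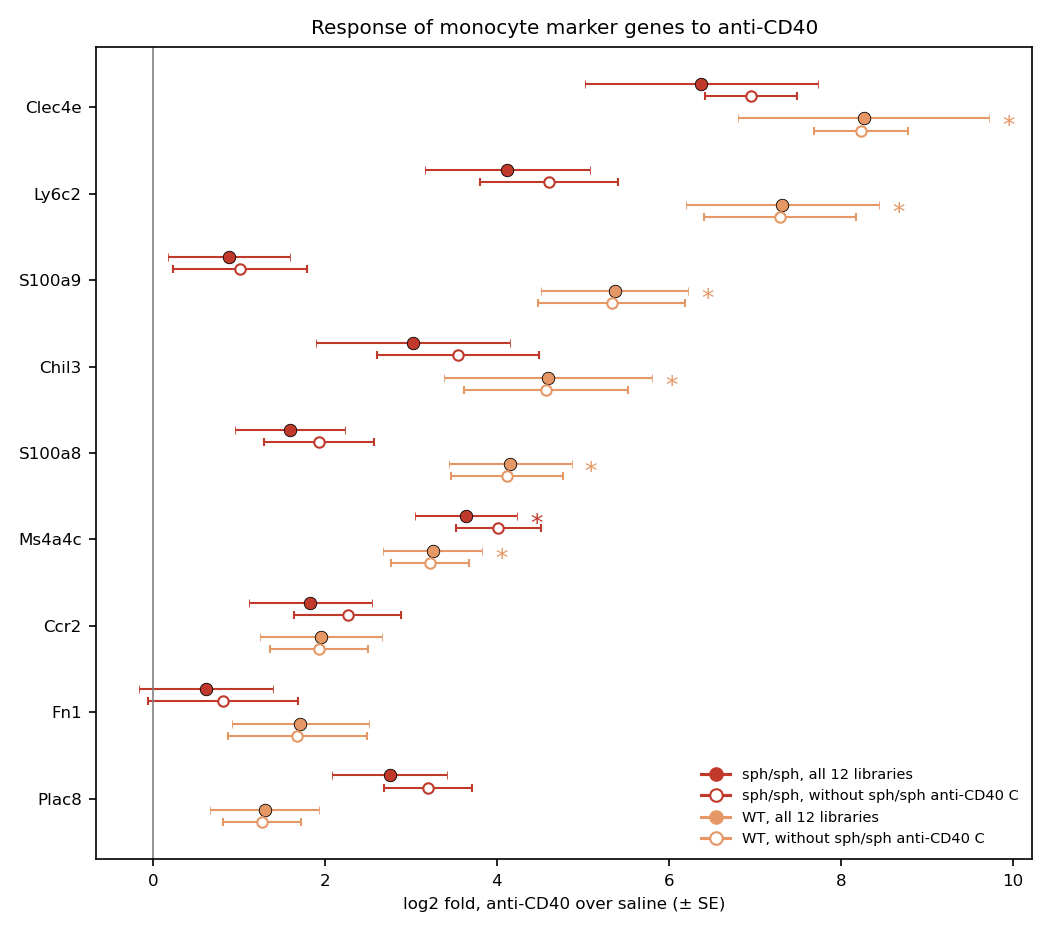
Log2 fold of each gene, anti-CD40 over saline, with its SE, in sph/sph mice (upper row of each gene) and in WT mice (lower row); filled points use all 12 libraries, open points leave out sph/sph anti-CD40 C, and a star marks a call with all 12. S100a9 shows the widest distance between genotypes, 0.89 in sph/sph and 5.37 in WT, while Ms4a4c lies at 3.64 in sph/sph and 3.25 in WT.

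Genotypes were next compared under anti-CD40, which asks whether the monocyte genes differ between sph/sph and WT livers after the same stimulus. Of all tested genes 11.5% were called higher and 6.19% lower in sph/sph. No member was called by edgeR, 1 of 9 (S100a9) had an unadjusted p under 0.05, and DESeq2 called 1, S100a9 (log2 fold -1.84, adjusted p = 0.0425). Over all 13844 tested genes 4337 had an unadjusted p under 0.05, and DESeq2 called 3374 genes. Without sph/sph anti-CD40 C, where 13.5% of genes were called higher and 10.8% lower, again no member was called. The median log2 fold of the members was -0.93 with this library and -0.65 without it, against 0.08 over all tested genes.

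In 1 gene, Clec4e, every sph/sph anti-CD40 library lay below every WT anti-CD40 library, 254, 282 and 2.16 CPM against 842, 647 and 349 CPM. The log2 fold was -1.77 ± 1.08 (edgeR adjusted p = 0.299), with an approximate 95% interval from -4.17 to 0.62. Without sph/sph anti-CD40 C it was -1.18 ± 0.46 (adjusted p = 0.0898), with an interval from -2.20 to -0.16. S100a9 had a log2 fold of -1.81 ± 0.72 (edgeR adjusted p = 0.115), with an interval from -3.40 to -0.21. The groups of S100a9 overlapped, since sph/sph anti-CD40 A at 80.7 CPM lay above WT anti-CD40 C at 59.6 CPM. S100a8 had a log2 fold of -1.21 ± 0.63 (edgeR adjusted p = 0.223), and -2.15 (adjusted p = 0.0424) when sph/sph anti-CD40 A was left out.

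The remaining genes overlapped between genotypes. Plac8 had a log2 fold of 0.25 ± 0.62, with an interval from -1.14 to 1.63, and Chil3 one of -0.35 ± 1.03, with an interval from -2.64 to 1.95. For Ms4a4c the interval ran from -1.72 to 0.63, for Ly6c2 from -3.04 to 0.73, for Ccr2 from -2.44 to 0.63 and for Fn1 from -2.67 to 0.80. These intervals hold differences of several fold in at least one direction for each gene, so the design does not show the genotypes to be alike.

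Markers of other cells differed between these same libraries. Of 16 Kupffer cell genes 15 were higher in sph/sph than in WT under anti-CD40 and none lower, and of 15 T and NK cell genes 7 were lower and none higher; without sph/sph anti-CD40 C all 15 were lower. All 13 erythroid genes were higher in sph/sph, with or without C, at a median log2 fold of 6.98, and summed to 4912 to 17469 CPM in sph/sph anti-CD40 and to 59.1 to 245 CPM in WT anti-CD40. Of 13 dendritic cell genes 1 was higher and 3 were lower, and without C 2 were higher and 8 lower; they summed to 275 to 489.9 CPM in sph/sph anti-CD40 and to 828 to 1621 CPM in WT anti-CD40. Of 9 B cell genes 1 was higher, and none without C, and of 10 endothelial genes 1 was lower, and 4 without C. T and NK cell genes summed to 6.80 to 127 CPM in sph/sph anti-CD40 and to 280.0 to 2249.5 CPM in WT anti-CD40, and 1 of these genes was at 0 in sph/sph anti-CD40 B. Neutrophil genes summed to 255 to 408 CPM in sph/sph anti-CD40 and to 532 to 786 CPM in WT anti-CD40, with 3 of 19 tested genes higher (Mpo, Elane and Fcnb) and 3 lower; without C, Fcnb was not called and 2 were higher. The part of these cells in the members' levels was not tested. As CPM are shares of a library, the level of a gene also depends on what the other cells contribute.

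**Figure D3:**
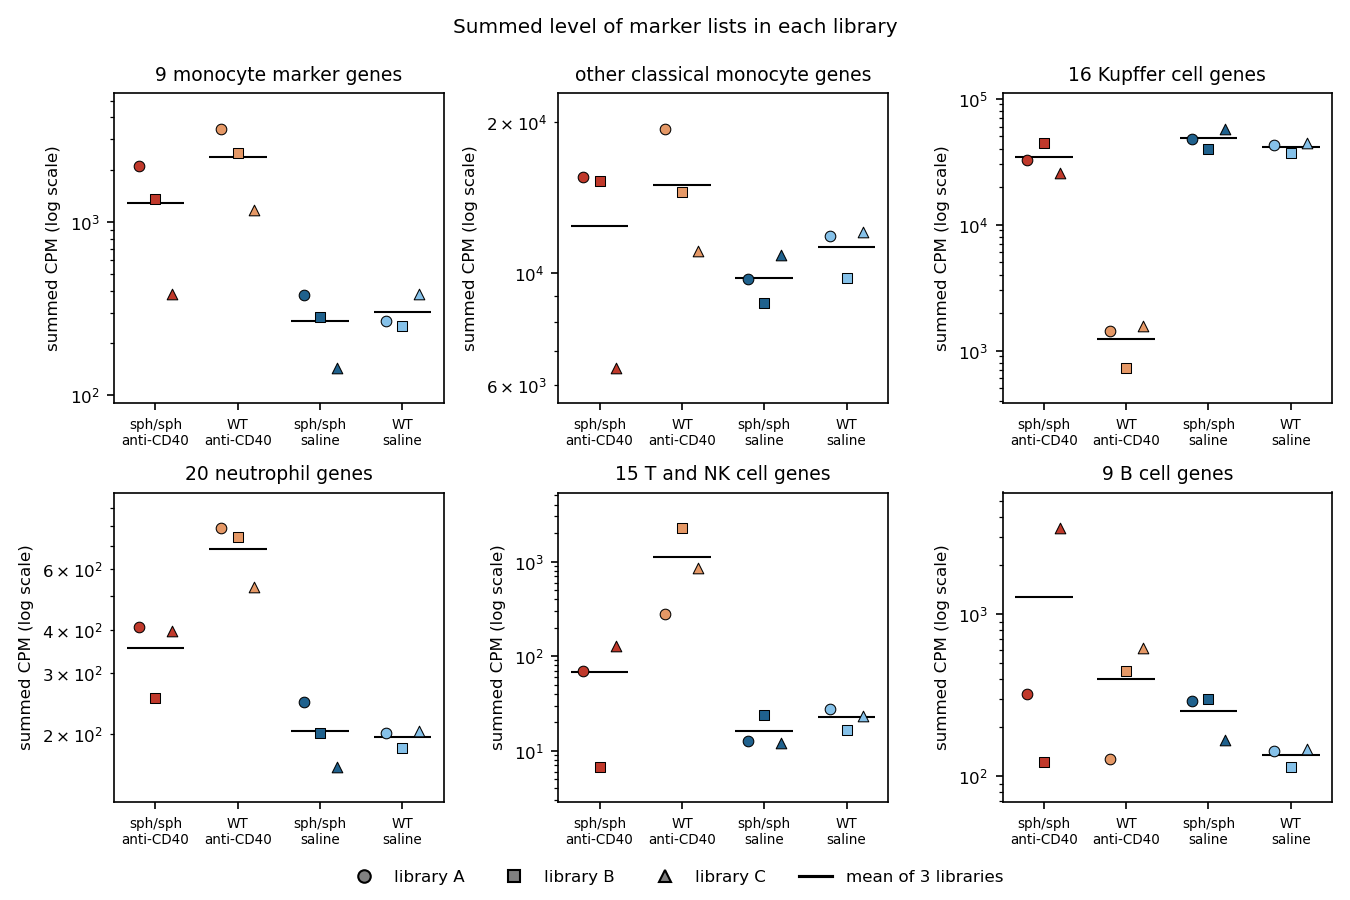
Summed CPM of the 9 monocyte genes and of 5 marker lists in each library, on log axes that differ between panels; symbols mark libraries A to C and lines are means of 3 libraries. The 9 genes sum to 386 to 2107 CPM in sph/sph anti-CD40, 1174 to 3422 CPM in WT anti-CD40, 145 to 379 CPM in sph/sph saline and 250.3 to 384 CPM in WT saline, while Kupffer cell genes are at their lowest in WT anti-CD40.

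The interaction asks whether the response to anti-CD40 differs between genotypes, as the sph/sph log2 fold minus the WT one. Of all tested genes 3.18% were called higher and 1.12% lower, and without sph/sph anti-CD40 C 4.30% and 2.40%. The median over the 9 genes was -1.57, and -1.02 without that library, against 0.05 over all tested genes in the fit with it. Of the members 1 was called, S100a9, at -4.48 ± 1.05 (edgeR adjusted p = 0.0410). It missed the threshold without sph/sph anti-CD40 C (-4.32, adjusted p = 0.0565), and likewise when any of 8 other single libraries was left out (adjusted p between 0.0537 and 0.105). The difference lay between -5.15 and -3.97 in all 21 alternatives that could be fitted. S100a8 had -2.56 ± 0.91 (edgeR adjusted p = 0.153), and -3.51 (adjusted p = 0.0388) without sph/sph anti-CD40 A. The other members ran from -3.20 for Ly6c2 (edgeR adjusted p = 0.198) to 1.45 for Plac8 (edgeR adjusted p = 0.421). Approximate 95% intervals, not adjusted for the number of genes, lay below zero for S100a9 (-6.82 to -2.15), S100a8 (-4.57 to -0.55) and Ly6c2 (-5.99 to -0.41). Those of the other members spanned both signs. Over all 13844 tested genes 2603 had an unadjusted p under 0.05 in the edgeR interaction.

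The size of the S100a9 interaction comes from both ends. In the anti-CD40 groups S100a9 averaged 46.4 ± 30.6 CPM in sph/sph and 162 ± 92.6 CPM in WT, and in the saline groups 25.1 ± 10.1 CPM in sph/sph and 3.93 ± 2.71 CPM in WT (SD, n = 3 each). Sph/sph saline was thus above WT saline while sph/sph anti-CD40 was on average below WT anti-CD40.

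Under saline, sph/sph against WT asks whether the genotype alone goes with a difference in these genes. Of all tested genes 1.60% were called higher and 0.433% lower. No member was called by edgeR, 1 of 9 had an unadjusted p under 0.05, and DESeq2 called 1; in both cases it was S100a9. Over all 13844 tested genes 1817 had an unadjusted p under 0.05, and DESeq2 called 814 genes. For S100a8 and S100a9 every sph/sph library lay above every WT library. The median log2 fold of the 9 genes was 0.16, against 0.01 over all tested genes.

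S100a9 stood at 33.2, 28.3 and 13.8 CPM in sph/sph saline, against 5.21, 0.824 and 5.76 CPM in WT saline. WT saline B, with 15 counts, was the lowest. S100a9 had a log2 fold of 2.68 ± 0.77 (edgeR adjusted p = 0.127; DESeq2 adjusted p = 0.00656). S100a8 stood at 26.9, 14.7 and 10.3 CPM in sph/sph saline, against 9.13, 4.94 and 6.26 CPM in WT saline (log2 fold 1.35 ± 0.65, edgeR adjusted p = 0.417). Ly6c2 had a log2 fold of 2.04 ± 0.93 (edgeR adjusted p = 0.383), with most of the excess in sph/sph saline A at 21.5 CPM. The other 6 ran from -1.20 for Plac8 to 1.22 for Chil3.

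Markers of other cells also differed between these libraries. Of 13 erythroid genes 12 were higher in sph/sph, at a median log2 fold of 5.62, and they summed to 5955.5 to 9601 CPM in sph/sph saline and to 128 to 369 CPM in WT saline. Of 16 Kupffer cell genes 2 were higher and 1 lower, and of 13 dendritic cell genes 1 was higher. Their part in the members' values was not tested.

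Genes of neutrophil granules, picked after their values were seen, were set beside these. Ngp stood at 33.0, 23.3 and 11.7 CPM in sph/sph saline and at 3.41, 0 and 0.388 CPM in WT saline. Ltf stood at 14.7, 15.4 and 4.95 CPM in sph/sph saline and at 1.22, 0 and 0.277 CPM in WT saline. Like S100a9, both were lowest in WT saline B and higher in every sph/sph saline library than in any WT saline library, though neither was called (edgeR adjusted p = 0.113 for Ngp and 0.0786 for Ltf). Of the 19 tested neutrophil genes 7 were higher and 3 lower in every sph/sph saline library than in any WT saline library. Of these 19 Fcnb was called higher and Mmp9, a gelatinase, lower (log2 fold -4.10 ± 0.62). The 20 listed genes summed to 161 to 248 CPM in sph/sph saline and to 182 to 204 CPM in WT saline, so the sums overlapped. In WT saline B 8 of the 20 were at 0 counts, among them Ngp, Ltf, Camp, Mpo and Elane, and Fcnb was at 0 in all WT saline libraries; in sph/sph saline at most 1 of the 20 was at 0 in a library. The part of neutrophil RNA in the S100a9 values was not tested.

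**Figure D4:**
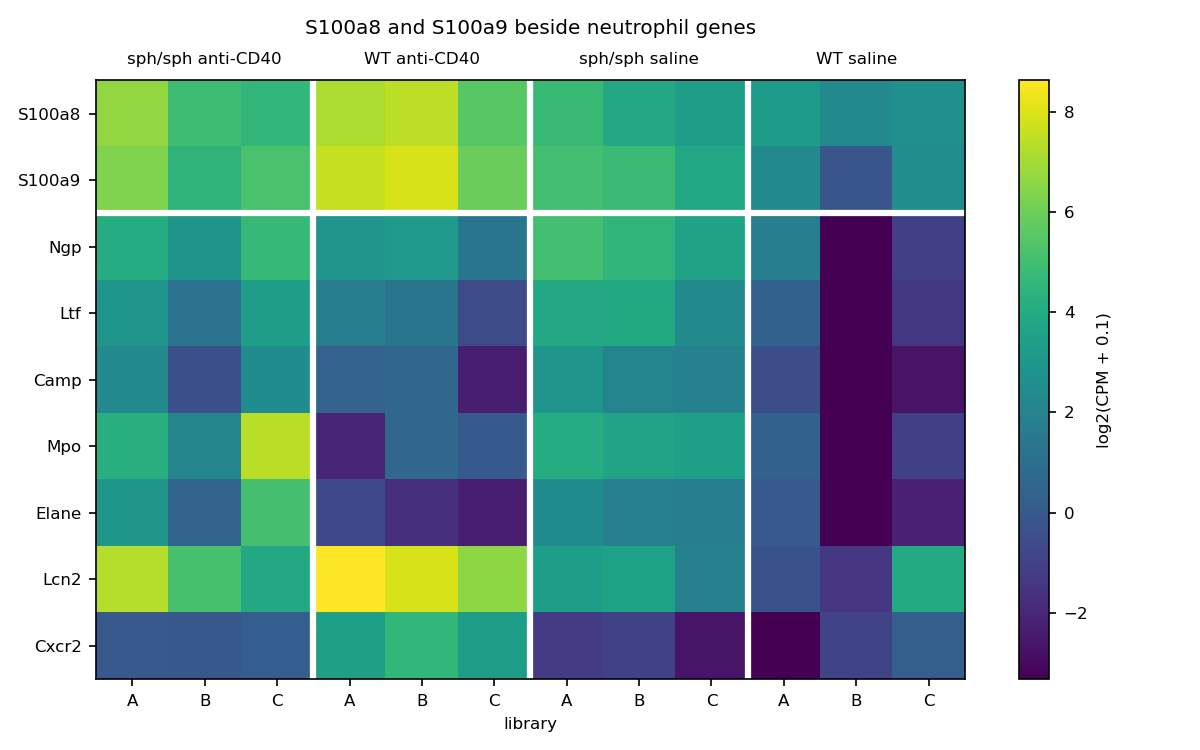
Heat map of log2(CPM + 0.1) for S100a8, S100a9 and 7 neutrophil genes, with 1 column per library and the 4 groups side by side. The 7 are a selection from the 20 listed neutrophil genes and do not stand for the whole list. Under saline Mmp9 was called lower and Fcnb higher in sph/sph than in WT, and neither is shown. S100a9 is lowest in WT saline B, where Ngp, Ltf, Camp, Mpo and Elane are at 0 counts, and Mpo is highest in sph/sph anti-CD40 C, at 168 CPM.

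The balance within the calprotectin pair also differed between libraries. Per kilobase of exon, the ratio of S100a9 to S100a8 was 1.05, 0.964 and 2.03 in sph/sph anti-CD40 A, B and C, 1.73, 1.85 and 1.74 in WT anti-CD40, 1.64, 2.57 and 1.79 in sph/sph saline, and 0.758, 0.222 and 1.22 in WT saline. All sph/sph saline libraries had a higher ratio than all WT saline libraries. In sph/sph anti-CD40, libraries A and B lay below, and C above, the narrow range of WT anti-CD40. These ratios were not tested.

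Library A of each group, without Y-linked counts, was the highest of its group for 8 of 9 members in sph/sph anti-CD40, for 6 in WT anti-CD40, for 8 in sph/sph saline and for 1 in WT saline. Among the 8 libraries with Y-linked counts alone, the anti-CD40 response in WT called 5 of the 6 genes and missed Chil3 (log2 fold 3.94, edgeR adjusted p = 0.108), and no member was called in any other comparison. Over all 14041 genes tested in that fit, 2845 were called in the WT response, 0 in the sph/sph response, 1174 between genotypes under anti-CD40, 13 between genotypes under saline and 153 in the interaction. Between the A libraries alone, WT anti-CD40 A over WT saline A, the log2 ratios of the 6 genes ran from 3.80 for Ms4a4c to 8.72 for Clec4e, with no replicate. For S100a9 the interaction was -5.02 (edgeR adjusted p = 0.185) in the 8 libraries and -3.89 in the other 4, and its saline genotype difference 2.68 and 2.67. The WT response of Fn1 was -0.02 in the 8 libraries and 3.02 between the A libraries, and the saline genotype difference of Chil3 was 0.009 and 3.64.

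Compared per kilobase of exon (CPM per kb), the order of the 9 genes differed between groups. The length used covers all annotated exons of a gene and not only the transcripts present. Levels of different genes therefore compare only roughly. In WT anti-CD40 S100a9 led with a mean of 311 CPM per kb, followed by Plac8 at 193 and S100a8 at 174, and Ccr2 was the lowest at 17.6. In sph/sph anti-CD40 Plac8 led with 229, followed by S100a9 at 88.9 and S100a8 at 75.3, and Ccr2 was again the lowest at 9.42. No pair of neighbours in either order was separated in all libraries. In sph/sph saline S100a9 led with 48.1 and Plac8 followed with 34.0, overlapping, whereas in WT saline Plac8 led with 78.3 and all its libraries lay above those of Ms4a4c, the next at 9.93. Clec4e was the lowest gene in both saline groups, at 0.437 CPM per kb in sph/sph saline and 0.401 in WT saline, with all libraries below those of the next gene.

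The members also varied together among animals. Over the 12 libraries the Pearson correlation of log2 CPM between 2 members had a median of 0.84 over the 36 pairs and ran from 0.46 for S100a9 and Fn1 to 0.95 for Ly6c2 and Chil3. With the group means removed the median was 0.72, from 0.19 for Clec4e and S100a9 to 0.98 for Ms4a4c and Plac8. These correlations describe 12 libraries that fall into 4 groups, share depth scaling and include library C, the lowest of its group for 9 of 9 members in WT anti-CD40 and for 8 of 9 in sph/sph anti-CD40. Ly6c2 and Plac8 stood at 0.98 with group means removed and Fn1 at no more than 0.52 with any other member.

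The genes of the whole table whose profile over the 12 libraries lay closest to each member, by the same correlation, were as follows. For Clec4e they were Mcemp1 (0.99), a membrane protein of myeloid cells, Slc7a11 (0.99), the cystine transporter, and Bst1 (0.99), a surface enzyme of myeloid cells. For S100a9 it was S100a8 (0.93). For Plac8 it was Ms4a6b (0.98), for Ms4a4c it was Ergic2 (0.98), followed by the chemokine receptor Ccr1 (0.98). Chil3 lay nearest to Spon1 (0.98) and next to the neutrophil collagenase Mmp8 (0.96), Ly6c2 nearest to Tmsb10 (0.98), and Ccr2 nearest to Elp4 (0.94) and then to Vcan (0.94), a proteoglycan of classical monocytes. S100a8 lay nearest to Eif3d (0.96) and Fn1 to Fdxacb1 (0.92). The rest of the 3 nearest were Gm11110 and S100a6 (both 0.97) for Ly6c2, Hccs (0.94) for Ccr2 and Cct2 (0.96) for Chil3. They were Cdk2ap1 (0.96) and Hpf1 (0.95) for S100a8, and Ptpn7 (0.93) and Ankrd13a (0.92) for S100a9. For Ms4a4c it was BC147527 (0.97), for Plac8 Cetn3 and Jpt1 (both 0.95), and for Fn1 Slc13a3 (0.91) and Stra6l (0.89).

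A further 24 genes of classical monocytes, not counted among the 9, moved in both directions. In the anti-CD40 response of WT mice 8 rose and 6 fell, with a median log2 fold of 0.77, and without sph/sph anti-CD40 C 11 rose and 6 fell; among those that rose were Ly6a (4.98 ± 0.60) and Ccr1 (4.02 ± 0.74). In sph/sph mice 2 rose, among them the protease Napsa (3.03 ± 0.48), and 11 rose without library C; none fell in either fit. Under anti-CD40 4 of the 24 exceeded WT in sph/sph mice, among them Fcgr1 (2.34 ± 0.70) and Mgst1 (2.13 ± 0.18), and Ly6a was lower (-3.54 ± 0.56); without C 7 were higher and 1 lower. Under saline Mgst1, a glutathione transferase, was higher in sph/sph (1.74 ± 0.18). In the interaction Smpdl3a was called (2.07 ± 0.46), and 2 genes were without C. Fcgr1 and Smpdl3a already averaged 206 and 811 CPM in sph/sph saline and 235 and 978 CPM in WT saline. In WT anti-CD40 they averaged 37.8 and 121 CPM. Which cells gave these values was not tested.

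Of 12 genes of non-classical monocytes, which patrol vessels and carry little Ly6C, 3 rose and 5 fell in WT, with Itgax at 4.66 ± 0.73, Spn at 4.51 ± 0.59 and Cd300e at -4.36 ± 0.46. None was called in sph/sph mice with all libraries, and without C 5 rose and 1 fell. Under anti-CD40 7 were higher and 1 lower in sph/sph than in WT. In the interaction 3 of the 12 were called, Cd300e (4.84 ± 0.60), Adgre4 (2.02 ± 0.40) and Pou2f2 (1.87 ± 0.34). Without C 4 were higher and 1 lower in the interaction. Cd300e, Adgre4 and Pou2f2 were already present under saline, where Kupffer cell genes were high. They averaged 191, 568 and 231 CPM in sph/sph saline and 244, 695 and 140 CPM in WT saline. In WT anti-CD40 they averaged 11.9, 115 and 28.4 CPM. Itgax and Spn were lower under saline, at 13.9 and 16.2 CPM in sph/sph and 20.0 and 4.86 CPM in WT. Which cells gave these values was not tested.

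Growth factors and ligands of the same axis were compared between genotypes under anti-CD40. Csf1, the growth factor of the monocyte and macrophage lineage, stood at 21.8, 28.2 and 45.1 CPM in sph/sph anti-CD40 and at 242, 279.8 and 429 CPM in WT anti-CD40. All sph/sph libraries were lower (log2 fold -3.32 ± 0.54, edgeR adjusted p = 0.00273), and the interaction was called too (-3.97 ± 0.73, edgeR adjusted p = 0.0147). Its receptor Csf1r went the other way, higher in sph/sph by 2.79 ± 0.36. Ccl2 stood at 86.4, 58.4 and 1.29 CPM in sph/sph anti-CD40, below all WT anti-CD40 libraries, but was not called (log2 fold -2.63 ± 0.94, edgeR adjusted p = 0.0832). With library C left out it was called (-2.05 ± 0.34, edgeR adjusted p = 0.00376). As library C was set apart partly by its own Ccl2 level, that call is no independent result. On this axis, with 12 genes tested, sph/sph exceeded WT for 2 and lay below it for 3 under anti-CD40 (3 and 4 without library C), none was called in the sph/sph response with all libraries, and 5 rose without library C. In the interaction 1 was higher and 1 lower, and without C 1 was higher and 3 lower.

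Of the 12 transcription factors of monocytes and granulocytes 3 rose and 2 fell in WT. Gfi1, a transcriptional repressor needed for granulocyte development, was called higher in both genotypes. It stood at 2.59 to 5.18 CPM in sph/sph anti-CD40 and at 0.116 to 0.178 CPM in sph/sph saline, and at 9.26 to 17.0 CPM in WT anti-CD40, with 2 counts in all over the WT saline libraries. Cebpa, needed for myeloid progenitors, fell in both, by 1.35 ± 0.24 in sph/sph and 2.89 ± 0.25 in WT on the log2 scale. Irf8, which directs monocyte development, was lower in sph/sph than in WT under anti-CD40 (-1.37 ± 0.22). In sph/sph mice 1 of the 12 rose and 1 fell, and without C 1 rose and 2 fell; between genotypes under anti-CD40 1 was higher and 2 lower, and without C 1 and 1. Of 9 receptors and partners of the calgranulins 5 rose and 4 fell in WT, led by S100a6 (4.05 ± 0.72), S100a11 (3.69 ± 0.58) and S100a4 (3.10 ± 0.85), and under anti-CD40 Tlr4 was higher (1.11 ± 0.20) and S100a10 lower (-1.61 ± 0.41) in sph/sph. In the sph/sph response none of these 9 was called with all libraries, and without C 5 rose and 1 fell.

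Close relatives of the members did not all follow them. Ly6c1, the neighbouring paralog of Ly6c2 and also an endothelial gene, stood at 1.93, 0.814 and 0.863 CPM in sph/sph anti-CD40 and at 38.8, 46.6 and 63.2 CPM in WT anti-CD40. Unlike for Ly6c2, no sph/sph library came near a WT library: the genotype difference was -5.36 ± 0.40 (edgeR adjusted p = 3.98e-05) and the interaction -4.59 ± 0.63 (edgeR adjusted p = 0.00325). Whether these differences exceed those of Ly6c2 was not tested. The responses of Ly6c1 itself were 2.38 ± 0.44 in sph/sph and 6.97 ± 0.44 in WT, both called. Ly6c1 had only 4, 2 and 5 counts in sph/sph saline, 7, 7 and 6 in WT saline, and 28, 11 and 16 in sph/sph anti-CD40. The sizes of its responses and of its interaction are therefore imprecise. Of the 6 tested genes of the Ly6 family 4 rose in WT and 1 in sph/sph (3 without C), and 2 were lower in sph/sph than in WT under anti-CD40 (3 without C). Of 11 Ms4a family genes besides Ms4a4c 3 rose and 1 fell in WT (5 and 1 without C) and none was called in sph/sph mice (4 rose without C), with the lymphocyte gene Ms4a4b at 7.08 ± 1.06 and lower in sph/sph than in WT under anti-CD40 (-3.29 ± 0.85), where 2 other genes of this family were higher without C. Of the chitinase-like family, Chil1 rose in WT (7.18 ± 1.22) and was lower in sph/sph than in WT under anti-CD40 (-3.60 ± 0.98); it rose in sph/sph mice without C.

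Reads of such relatives can be hard to tell apart. Of all 100-letter words in its transcripts, Ly6c2 shared 5.81% with other genes, Chil3 4.93%, Ms4a4c 1.66% and Ccr2 0.79%, for the first 3 mainly with Ly6c1, Chil4 and Ms4a4b, and the other 5 members shared none of that length. Of 50-letter words Chil3 shared 26.9%, Ly6c2 14.4%, Ms4a4c 8.19%, Ccr2 1.91% and Fn1 0.589%, and the other 4 members none. The read length is not given in the sources used here. How reads that map to several genes were counted is not given in the sources used here, so parts of these genes' counts are uncertain. Fn1 overlaps 292 exonic bases of the antisense gene Apol7d and Ms4a4c 28 of the pseudogene Gm5692, and as no source used here tells whether counting used strand, reads there cannot be assigned with certainty.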

How the data were processed

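RNA was measured in F4/80-enriched liver cells of 12 mice, 3 in each of 4 groups taken from the labels. The deposited table holds the authors' raw counts per gene, whole numbers with no normalization. STAR 2.7.0e, featureCounts, SAMtools 1.9 and the build GRCm38.p5 are named in the submitters' processing notes; how strand and reads with several matches were treated, and which annotation was used, is not given in the sources here. Libraries of TruSeq stranded type were made, per the labels' protocols. Totals per library ran from 14991250 to 18984067, and 0 rows named no gene. The column names carry no replicate number, and only the A libraries of the genotypes share an identifier within a treatment, so the libraries were lettered A to C and not paired.

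Genes were filtered with filterByExpr by group, which left 13844 (14066 without sph/sph anti-CD40 C), scaled by TMM and fitted with edgeR 4.0.16 (R 4.3.3) as group means over all 12 libraries with the robust quasi-likelihood test and Benjamini-Hochberg adjustment over all tested genes. The common biological coefficient of variation was 0.382. SEs were taken as the log2 fold over the root of F, and intervals from the same with the moderated degrees of freedom, so both are approximate. Exon lengths came from GENCODE M21 gene models (GRCm38); 25664 of 25700 identifiers were found there. DESeq2 1.42.0, limma 3.58.1 (voom), other scalings, no filter, a term for Y-linked counts, only the groups compared and each library left out were alternatives. The term for Y-linked counts sets library A of each group against the other libraries. The fit was also run on simulated counts with the same spread for all genes and no library set apart. That run does not bear on calls that depend on sph/sph anti-CD40 C. Correlations used log2 CPM with a prior count of 2.

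All 9 members were described in every comparison. From each other list up to 3 called genes with the largest change were named, and for each member the 3 genes nearest in profile were computed. The members, the lists and the marker genes were chosen with earlier results of these data known. Some genes that this rule or the checks would name are not reported here.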

Additional observations from a re-analysis of the deposited data

Results flagged for a closer look

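The response of S100a9 to anti-CD40 differed between genotypes by a test of the difference itself: the sph/sph log2 fold minus the WT one was -4.48 ± 1.05 (SE; edgeR quasi-likelihood interaction, adjusted p = 0.0410, n = 3 libraries per group). S100a9 had a log2 fold of 0.89 in sph/sph mice and of 5.37 in WT mice. The call held in 9 of 21 alternatives, with adjusted p-values from 0.000331 to 0.185, and the difference was negative in all 21.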

How the results depend on the processing

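Of 981 recomputed log2 folds of the 9 genes, 906 kept their direction and side of the threshold, 25 lost a call, 26 gained one and 24 changed sign; none of the 24 was called, and none of the 8 called results changed sign. The count of members called for the WT response, 6, stayed between 5 and 8. It was 8 without sph/sph anti-CD40 C and with only the groups compared, where 3297 of 14066 and 2961 of 13254 tested genes rose. It was 5 without WT saline A and in the 8 libraries with Y-linked counts, where 1724 of 14152 and 1093 of 14041 rose. In the main fit 2690 of 13844 rose. For the sph/sph response, 1 member was called; DESeq2 called 5, the fit of only the groups compared 0, the 8 libraries with Y-linked counts 0, and leaving out single libraries 0 to 6. For the interaction, 1 was called, against 2 by DESeq2, 0 with no filter on low counts, 0 by limma-voom, 0 in the 8 libraries, and 0 to 2 with single libraries left out. Over all tested genes 595 were called in the interaction. DESeq2 called 1336, no filter 489, limma-voom 495, the 8 libraries 153, and fits with single libraries left out 259 to 944. Between genotypes 0 were called under saline (DESeq2 called 1) and 0 under anti-CD40 (DESeq2 called 1, single libraries left out 0 to 1). Over all tested genes DESeq2 called 814 under saline, against 282 in the main fit, and 3374 under anti-CD40, against 2455. Without sph/sph anti-CD40 A, the library whose removal gave 1 member, 1984 genes were called under anti-CD40. The cause of these differences was not tested. The fit of the 8 libraries was chosen after seeing the data. Over all tested genes 108 were called in the sph/sph response, 1282 by DESeq2, 0 of 13038 with only the groups compared, 0 of 14041 in the 8 libraries, 0 without any 1 sph/sph saline library, and 1, 17 and 2372 without sph/sph anti-CD40 A, B and C. Library totals alone gave 71 genes higher and 6 lower in the sph/sph response, against 80 and 28, and a median of 0.101 in the WT response.

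Changed signs were as follows. Under saline, sph/sph against WT, Ccr2 was 0.014 without WT saline C. There Clec4e was -0.11 with limma-voom, -0.039 with the term for Y-linked counts, -0.58 in the 8 libraries and -0.58 without sph/sph saline A. Fn1 was -0.082 with limma-voom and -0.25 without sph/sph saline B. In the WT response Fn1 was -0.021 in the 8 libraries. Under anti-CD40, sph/sph against WT, Chil3 was 0.20 without sph/sph anti-CD40 C. Plac8 was -0.042 with limma-voom, -0.15 in the 8 libraries, -0.00094 without WT anti-CD40 C and -0.38 without sph/sph anti-CD40 A. Fn1 was 0.63 in the 8 libraries and 0.78 without WT anti-CD40 A. In the interaction Ccr2 was 0.27 in the 8 libraries, and 0.23, 0.088, 0.46, 0.25 and 0.33 without WT saline A, WT saline B, sph/sph saline A, WT anti-CD40 B and sph/sph anti-CD40 C; Ms4a4c was -0.19 without sph/sph anti-CD40 A; Fn1 was 0.62 in the 8 libraries and 0.61 without WT anti-CD40 A. With single libraries left out, log2 folds under saline ran from -1.36 to 0.014 for Ccr2, from -0.58 to 0.45 for Clec4e and from -0.25 to 0.58 for Fn1; between genotypes under anti-CD40 from -1.05 to 0.20 for Chil3, from -0.38 to 0.71 for Plac8 and from -1.40 to 0.78 for Fn1; and in the interaction from -0.91 to 0.46 for Ccr2, from -0.19 to 0.80 for Ms4a4c and from -1.54 to 0.61 for Fn1. No paired analysis was possible because the table's columns carry no replicate numbers, and the genotypes share an identifier in 1 pair of libraries per treatment. Counts of 40 or fewer, such as Clec4e in sph/sph anti-CD40 C and S100a9 in WT saline B, limit the precision of those values.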
